A study of Mus musculus with 4 samples.

Results

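The guanylate-binding proteins (GBPs) were examined as a gene family in mouse embryonic stem cells with and without Trim28. The family is read here through 7 genes, Gbp2, Gbp3, Gbp4, Gbp5, Gbp7, Gbp8 and Gbp9, each measured by 1 probe set annotated with that symbol alone, out of 18820 genes compared. A further 3 probe sets carry several symbols that all begin with Gbp, and these are given separately. The family was chosen by the contrast described below, because Gbp2 had the largest difference of the 18820 genes. The members' own values are therefore a description with no test.

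GBPs are large GTPases of the dynamin superfamily that cells make after exposure to interferons. They assemble on bacteria and on the vacuoles of intracellular parasites, break open these compartments and help inflammasomes to fire. Some members carry a C-terminal lipid anchor added by prenyl transferases. Their transcription is driven by factors that bind gamma-activated sites and interferon-stimulated response elements, among them interferon regulatory factors such as IRF1. In the mouse the genes lie in a cluster on chromosome 3 and another on chromosome 5.

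Total RNA of 4 samples was hybridised to Affymetrix Mouse Gene ST 1.1 arrays, 1 array per sample. The KAP_WT group (2 samples, biological replicates 1 and 2) has a wild-type genotype, and the KAP_KO group (2 samples, biological replicates 1 and 2) is a KAP1 fl/fl knockout. KAP1 is another name of Trim28, a co-repressor recruited to DNA by KRAB zinc finger proteins, and fl/fl denotes conditional alleles. All 4 samples are labelled with 4-OH-tamoxifen, and the protocol gives 24 h of drug or ethanol followed by 48 h without it. Irradiated mouse embryonic fibroblasts (MEFs) served as feeder cells, and no step that removes them is described. Whether KAP_WT is the parental line of KAP_KO, and whether replicates were separate cultures, is not stated in the labels. The p-values given for other genes therefore measure only the spread between these samples, and the effects of Trim28 loss and of a difference between lines cannot be told apart. Trim28 measured 11.29 and 11.37 in KAP_WT against 8.97 and 8.92 in KAP_KO (log2 array values), lower in both knockout samples, as labelled (adjusted p = 3.39e-05, limma).

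Along chromosome 3, Gbp2, Gbp3 and Gbp7 had higher values in the knockout, whereas Gbp5 did not. Gbp2 was 59.8-fold higher, Gbp3 8.34-fold and Gbp7 3.73-fold, as array values. On chromosome 5, Gbp4 was 3.90-fold higher and Gbp9 2.22-fold, and Gbp8 differed by 1.27-fold. Of the 7 members, 5 were at least 2-fold higher, against 4.45% of all genes compared. In 6 of 7 both knockout values lay above both wild-type values, as they did for 26.6% of all genes. Nothing is read from these counts, since the contrast chose the family.

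Promoters are shown for the chromosome 3 genes, the only family genes with a promoter window (5 of 11). The member with the largest difference and the member with the smallest lie in that cluster. The sequences are RefSeq's for GRCm38.p6, plus strand, 5′ to 3′, and end before the first annotated base of the gene. Distances below are counted from the start of the RefSeq promoter window, which follows directly on the printed end in Gbp5, Gbp7 and Gbp2. In Gbp3 and Gbp2b, which have several annotated transcripts, that start lies downstream of the first annotated base, with 28 and 31 bases left unprinted between them. Capitals mark every match to the interferon-stimulated response element core, GAAANNGAAA, which in each of these promoters reads on the strand opposite to the gene. The genes follow in chromosome order.

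Gbp5, chr3:142496684-142496933: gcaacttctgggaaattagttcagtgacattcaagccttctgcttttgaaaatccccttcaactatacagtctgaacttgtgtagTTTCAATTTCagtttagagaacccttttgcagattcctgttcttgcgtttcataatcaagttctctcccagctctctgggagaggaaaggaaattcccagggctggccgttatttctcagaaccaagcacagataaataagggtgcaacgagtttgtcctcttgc

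Gbp7, chr3:142530086-142530335: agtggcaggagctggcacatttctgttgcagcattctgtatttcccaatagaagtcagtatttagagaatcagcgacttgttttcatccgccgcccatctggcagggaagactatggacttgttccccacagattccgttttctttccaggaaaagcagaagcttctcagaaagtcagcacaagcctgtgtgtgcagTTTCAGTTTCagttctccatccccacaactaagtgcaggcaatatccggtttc

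Gbp3, chr3:142559794-142560015: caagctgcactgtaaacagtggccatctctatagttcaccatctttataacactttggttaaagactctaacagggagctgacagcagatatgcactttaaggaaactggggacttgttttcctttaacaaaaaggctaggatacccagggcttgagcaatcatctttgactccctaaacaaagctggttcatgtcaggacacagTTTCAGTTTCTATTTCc

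Gbp2b, chr3:142594597-142594815: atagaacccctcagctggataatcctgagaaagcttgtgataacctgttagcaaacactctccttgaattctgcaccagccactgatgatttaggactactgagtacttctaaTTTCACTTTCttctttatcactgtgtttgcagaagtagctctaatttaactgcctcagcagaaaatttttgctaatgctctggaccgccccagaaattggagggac

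Gbp2, chr3:142620413-142620662: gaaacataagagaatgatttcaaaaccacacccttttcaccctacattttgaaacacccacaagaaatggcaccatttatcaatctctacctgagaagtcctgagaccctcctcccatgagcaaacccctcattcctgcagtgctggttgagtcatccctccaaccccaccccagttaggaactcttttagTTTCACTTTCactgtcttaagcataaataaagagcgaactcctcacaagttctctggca

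The core was searched on both strands of the RefSeq promoter windows, 300 bases each, with 250 before and 50 after the start. All 5 chromosome 3 family genes held it. It was found in 3.44% of the 32851 windows of all genes. Gbp3 has 2 starts in the table, and its other window held no core. In Gbp2 the match ended 50 bases before the start, in Gbp7 44 bases, and in Gbp3 a pair of overlapping matches ended 36 and 30 bases before it, at the end of the printed stretch. In Gbp5 and Gbp2b it ended 156 and 128 bases before the start. The gamma-activated site, TTCNNNGAA, was present in 8.30% of windows. Gbp5 held this site at a pair of places, ending 237 and 44 bases before the start, and Gbp7 at another pair, ending 98 and 79 bases before it. The gamma-activated site and the core did not overlap in these windows. Gbp3, Gbp2b and Gbp2 had no match to the gamma-activated site. The promoter set held no window for the chromosome 5 family genes, so their promoters could not be compared. A match describes letters in a reference genome and does not show that a factor binds.

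**Figure D1:**
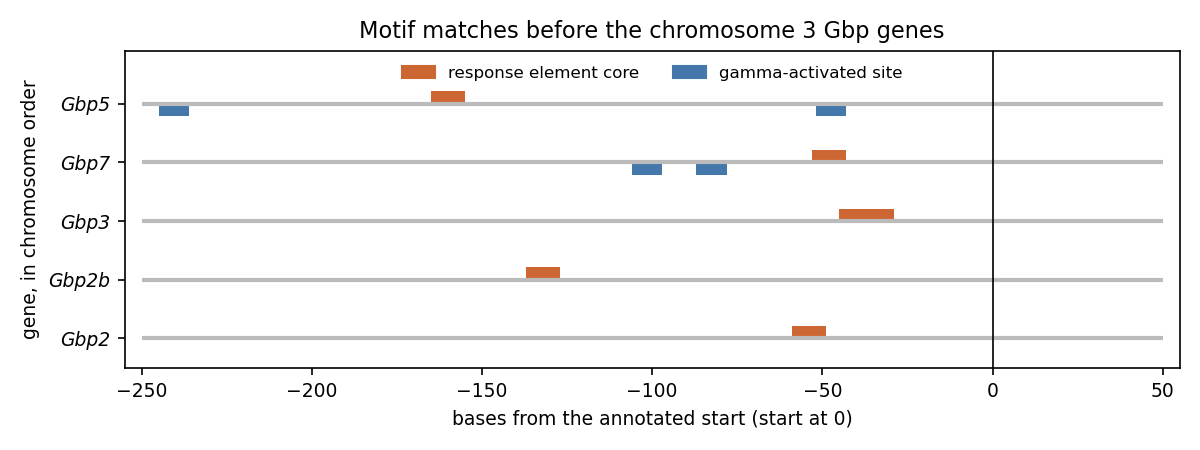
Matches to the response element core (orange) and the gamma-activated site (blue) in the 300-base windows of the 5 chromosome 3 genes, drawn to scale by distance in bases from the annotated start. The core ends 50 bases or less before the start in Gbp2, Gbp3 and Gbp7, and 128 and 156 bases before it in Gbp2b and Gbp5.

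Shares of called genes with and without the core were close over the whole array. Of 576 compared genes with the core in a window, 82 passed as higher in the knockout (14.2%) and 60 as lower (10.4%). Of 14163 genes with a window but no core, 13.9% passed as higher and 13.2% as lower. The median differences were -0.06 and -0.05. Of the 1336 genes with a gamma-activated site, 10.9% passed as higher, against 14.3% of those without one.

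Gbp2 encodes a GBP that coats bacteria and parasite vacuoles. It measured 3.50 and 3.43 in KAP_WT against 9.36 and 9.37 in KAP_KO (probe set 10496592, log2 array values). Both knockout arrays stood far above both wild-type arrays, and the arrays of a group differed by less than 0.1. The KAP_WT mean of 3.47 ± 0.05 and the KAP_KO mean of 9.37 ± 0.01 (SD, n = 2 each) gave a difference of 5.90 on the log2 scale (SE 0.09).

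Gbp3 measured 3.47 and 3.49 in KAP_WT against 6.48 and 6.60 in KAP_KO. It too was separated by group with close replicates, and its log2 difference was 3.06 (SE 0.09). Gbp7, whose product takes part in defence against intracellular pathogens, measured 3.94 and 4.04 in KAP_WT against 5.92 and 5.86 in KAP_KO. The groups did not overlap, and the log2 difference was 1.90 (SE 0.09).

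Gbp5, whose product promotes inflammasome assembly, lies at the first place of the same cluster. It measured 2.98 and 2.92 in KAP_WT against 2.89 and 2.89 in KAP_KO. All 4 values lay within 0.1 log2 units, with a difference of -0.06 (SE 0.09). The sign of this difference turned to 0.01 after a further quantile normalization, and it was -0.23 with array medians subtracted. The probe set shared by Gbp5 and Gbp2b, which encodes the protein known as mouse GBP1, measured 3.63 and 3.38 in KAP_WT against 3.44 and 3.50 in KAP_KO. Here the groups overlapped, with a log2 difference of -0.03 (SE 0.12). In RefSeq gene order Gbp2b stands between Gbp3 and Gbp2, the members with the largest differences. Which of Gbp5 and Gbp2b gave the signal of the shared probe set cannot be told apart. Its values were low, at percentiles 24.3 to 29.3 of all probe sets, so whether Gbp2b itself changed was not measured.

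On chromosome 5 the differences were graded as well. Gbp4 measured 3.74 and 3.69 in KAP_WT against 5.86 and 5.50 in KAP_KO, a log2 difference of 1.96 (SE 0.13). Its knockout samples lay 0.36 apart, the widest gap between replicates among the members. Gbp9 measured 3.79 and 3.62 in KAP_WT against 4.99 and 4.72 in KAP_KO, and its difference was 1.15 (SE 0.12). Groups did not overlap in either gene.

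Gbp8 measured 4.09 and 3.84 in KAP_WT against 4.45 and 4.18 in KAP_KO. The lower knockout value stood just above the higher wild-type value. The log2 difference of 0.35 (SE 0.13) ranged from 0.21 to 0.48 when single samples were left out and was 0.18 with array medians subtracted.

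For the remaining chromosome 5 genes only shared probe sets were read. The probe set of Gbp11, Gbp10 and Gbp6 measured 3.81 and 3.74 in KAP_WT against 5.20 and 5.08 in KAP_KO, a log2 difference of 1.37 (SE 0.10). The probe set of Gbp11 and Gbp6 measured 3.20 and 3.11 in KAP_WT against 4.00 and 3.71 in KAP_KO, a difference of 0.70 (SE 0.13). Both were separated by group, but which of the genes that share a probe set gave its signal cannot be told apart. RefSeq lists Gbp11 as a transcribed pseudogene.

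**Figure D2:**
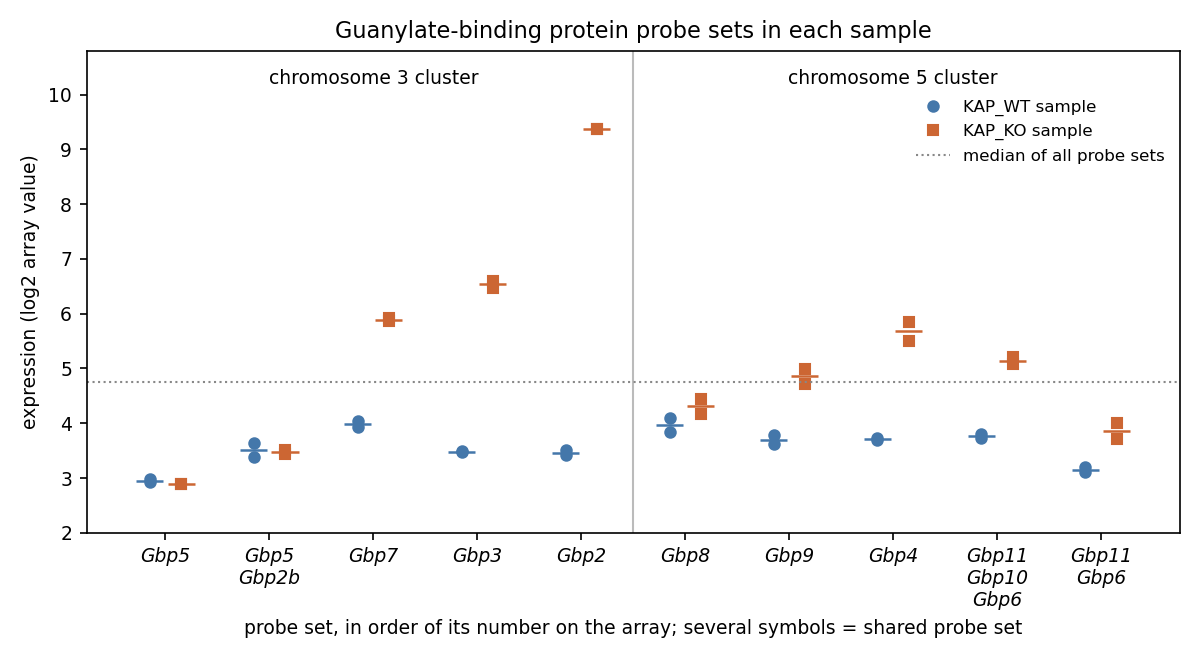
Log2 array values of the 7 members and the 3 shared probe sets in each sample, with wild-type samples as circles, knockout samples as squares, group means as short lines and the median of all probe sets dotted. Wild-type values lie between 2.92 and 4.09 in the members; knockout values reach 9.37 in Gbp2 and stay at 2.89 in Gbp5.

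Ordered by difference, the members ran Gbp2 (5.90), Gbp3 (3.06), Gbp4 (1.96), Gbp7 (1.90), Gbp9 (1.15), Gbp8 (0.35) and Gbp5 (-0.06). Gbp4 and Gbp7 lay within the SE of either gene of each other, so their order is not set, and the other neighbours in this order lay farther apart than their SEs added together. The median over the 7 members was 1.90, against -0.05 over all genes. In the rank of all 18820 differences Gbp3 stood at place 40, Gbp4 at 194, Gbp7 at 217, Gbp9 at 648, Gbp8 at 2830 and Gbp5 at 9556. No member was removed by a filter on low values, since none was applied. The wild-type values of all 7 lay below the array medians of all probe sets, which were 4.75 to 4.77. Signal over background is unknown there, so the folds hold for array values and not for transcript numbers. The medians over the genes compared were 5.46 and 5.48 in KAP_WT against 5.66 and 5.63 in KAP_KO. Subtracting these array medians moved every member down by 0.17 (Gbp2 to 5.73). The spread between the highest and the lowest member, 5.96, ranged from 5.95 to 5.97 when single samples were left out.

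Most genes around both clusters had small differences, and Lrrc8c was the exception. Of the 10 measured neighbours of the chromosome 3 cluster, 5 on each side, 4 rose and 0 fell by limma (0 also at an unadjusted p of 0.05), with differences from -0.03 to 0.67. Over all genes 14.2% rose and 12.7% fell (26.9% in all). Kyat3, a kynurenine aminotransferase gene next to the cluster, rose by 0.67 (limma adjusted p = 0.00436), and Lmo4, a LIM-domain gene, by 0.53 (adjusted p = 0.00545). Bmpr1b, a BMP receptor gene, rose by 0.44 (adjusted p = 0.0194) and Gtf2b, a general transcription factor gene, by 0.39 (adjusted p = 0.0422). These smaller rises missed the threshold without wild-type replicate 1 (adjusted p = 0.108 for Bmpr1b and 0.202 for Gtf2b). Bmpr1b also did so without knockout replicate 1 (0.0643), and Gtf2b without wild-type replicate 2 (0.0792) or knockout replicate 2 (0.173). On the side of Gbp5, the nearest gene, Pdlim5, had a difference of 0.27 (adjusted p = 0.105).

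Beside the chromosome 5 cluster, 2 of 10 neighbours rose and 1 fell by limma, close to the shares over all genes, with differences from -0.67 to 2.07. At an unadjusted p of 0.05, 3 fell, and rises were not counted at that level. Lrrc8c, a subunit gene of volume-regulated anion channels and the second measured gene after the cluster, measured 6.45 and 6.28 in KAP_WT against 8.42 and 8.44 in KAP_KO. Its rise of 2.07 (SE 0.10, adjusted p = 6.53e-05) was about that of Gbp4. The adjoining paralogs differed from it, with Lrrc8d lower by a log2 difference of -0.67 (adjusted p = 0.0159) and Lrrc8b at 0.37 (adjusted p = 0.0532). Lrrc8d had an adjusted p of 0.111 and 0.112 when wild-type replicate 1 or 2 was left out, and Lrrc8b one of 0.0307 when knockout replicate 2 was. The other gene that rose was Zfp951 (0.40, adjusted p = 0.0199), which missed the threshold without wild-type replicate 1 (0.109), wild-type replicate 2 (0.0722) or knockout replicate 1 (0.0793).

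**Figure D3:**
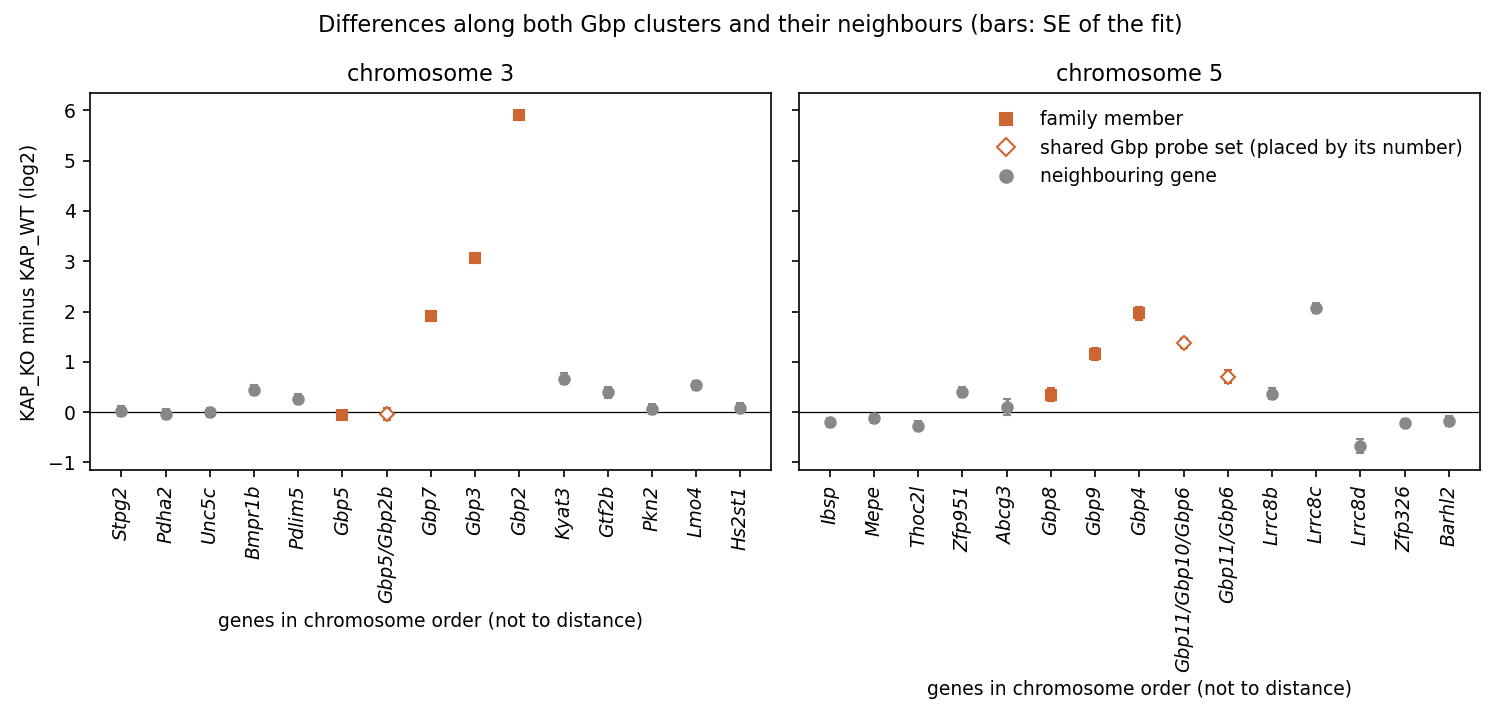
Log2 difference of knockout minus wild type for family members (squares), shared probe sets (open diamonds) and 5 measured neighbours on each side (grey circles). Members and neighbours stand in chromosome order and not to distance, and shared probe sets by their number on the array. The diamond of Gbp5 and Gbp2b thus stands next to Gbp5, although Gbp2b lies between Gbp3 and Gbp2. Bars are the SE of the fit. Gbp7, Gbp3 and Gbp2 stand above their chromosome 3 neighbours, which lie between -0.03 and 0.67; on chromosome 5 Lrrc8c (2.07) stands as high as Gbp4 (1.96).

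Interferon genes themselves were not called. Of 12 measured ligand genes 0 rose and 0 fell by limma, and at an unadjusted p of 0.05 the counts were 0 and 1. Ifng, the type II interferon, measured 3.79 and 3.82 in KAP_WT against 3.81 and 3.82 in KAP_KO, and Ifnb1 had a difference of -0.08 (SE 0.17). With 2 arrays per group and low array values, a small change in a ligand was not detectable, and protein was not measured.

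Receptors and signal transducers of the pathway were higher more often than lower. Of 19 measured genes 9 rose and 2 fell, against 14.2% and 12.7% of all genes, with a median difference of 0.15. Both receptor chains for interferon gamma rose: Ifngr1 measured 6.16 and 6.01 in KAP_WT against 6.91 and 7.09 in KAP_KO (log2 difference 0.92, adjusted p = 0.00136), and Ifngr2 went from 6.71 and 6.85 to 8.09 and 8.09 (1.31, adjusted p = 0.000224). Of the type I receptor chains, Ifnar1 rose by 0.66 (adjusted p = 0.0124; 0.103 and 0.0838 when wild-type replicate 1 or 2 was left out) and Ifnar2 differed by 0.06.

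Among the kinases that these receptors use, Jak2 rose by 1.85 (SE 0.17), Jak1 differed by 0.15 and Tyk2 fell by 0.68. Stat2, which acts in the response to type I interferon, fell by 0.38 (adjusted p = 0.0402), but missed the threshold whichever of the 4 samples was left out (adjusted p = 0.0598 to 0.184), with the replicate number as a block (0.0538) and with a trended prior (0.0544).

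The interferon regulatory factors moved unequally. Irf1, the activator of GBP genes in the response to interferon gamma, measured 7.08 and 7.20 in KAP_WT against 9.03 and 9.21 in KAP_KO, a rise of 1.98 (SE 0.11, adjusted p = 8.62e-05). Its other, dimmer probe set differed by 0.41. Irf2, which binds the same elements, rose by 1.84 (SE 0.10), from 3.56 and 3.68 to 5.40 and 5.53. Irf9, a DNA-binding partner of STAT2, rose by 0.46, though its adjusted p was 0.0857 and 0.0551 when wild-type replicate 1 or 2 was left out and 0.0520 when knockout replicate 1 was. Irf7 differed by 0.07 and Irf8 by -0.36 (adjusted p = 0.0597; 0.0272 after quantile normalization).

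Of the feedback inhibitors, Usp18 and Socs1 rose, while Socs3 differed by -0.22 (adjusted p = 0.362). Usp18, a protease that removes ISG15 and restrains type I interferon signalling, rose by 2.61 (SE 0.14), from 3.82 and 3.99 to 6.70 and 6.34. Socs1, an inhibitor of JAK kinases, rose by 0.55, with adjusted p-values of 0.0925 and 0.0577 when wild-type replicate 1 or 2 was left out. The count of called receptors and transducers was 7 without either wild-type replicate.

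Of 23 other measured targets of interferon gamma, 14 rose and 2 fell, against 14.2% and 12.7% of all genes, with a median difference of 0.65. The rises were led by genes of the MHC class I peptide pathway: Psmb8, an immunoproteasome subunit (2.84), Psme2, a proteasome activator subunit (2.41), Tap1, a peptide transporter (2.36), and Tapbp, or tapasin (1.89). The 2 that fell were Icam1, an adhesion molecule (-0.93), and Wars, a tryptophanyl-tRNA synthetase (-0.29, adjusted p = 0.0490). Wars missed the threshold whichever of the 4 samples was left out (adjusted p = 0.138 to 0.154), with the replicate number as a block (0.0642) and after quantile normalization (0.0817). Outside the MHC class I genes, the chemokine gene Cxcl10 (0.75), Cd274 (0.78), Xaf1 (0.57) and Nos2 (0.44) rose. The chemokine genes Cxcl9 (-0.15) and Cxcl11 (0.06), Ido1 (0.11) and the MHC class II transactivator gene Ciita (-0.05) did not pass. Nlrc5, a transactivator of MHC class I genes, differed by 0.23 in its brightest probe set (adjusted p = 0.131) and by -0.17 to 0.28 in the others.

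**Figure D4:**
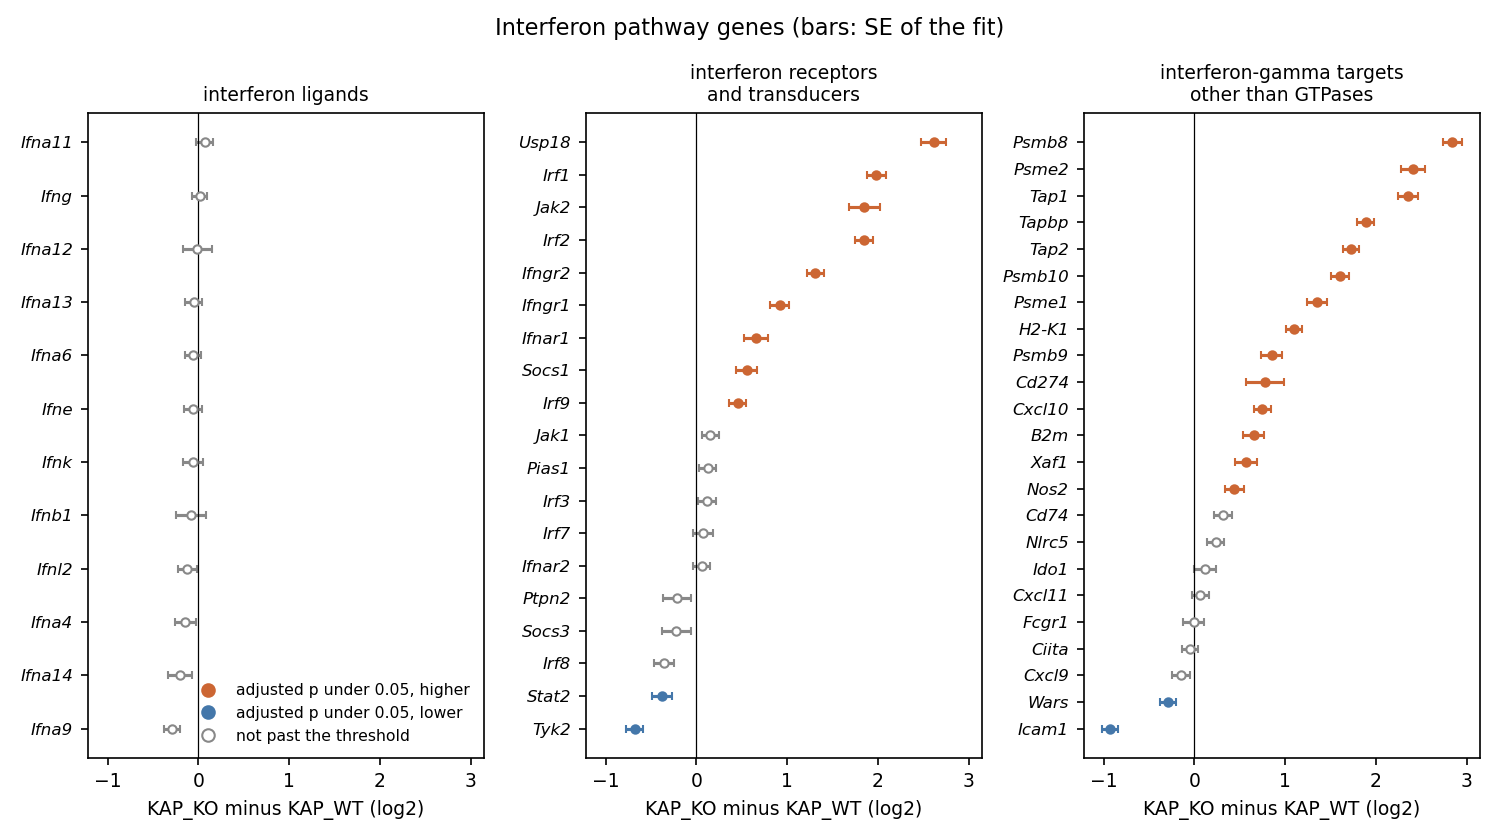
Log2 difference of knockout minus wild type for measured interferon ligands, receptors and transducers, and interferon gamma targets, with the SE of the fit; filled points passed an adjusted p of 0.05. No ligand passed, while 9 of 19 receptors and transducers and 14 of 23 targets rose.

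Several of the immunity-related GTPases, a family of smaller GTPases, are interferon-induced and act with GBPs on vacuoles. Of 6 measured genes of this family, including Irgq and Irgc1, 1 rose and 0 fell (1 and 0 at an unadjusted p of 0.05). Over all genes 14.2% rose and 12.7% fell, so the count by itself is close to these shares. Shared probe sets are outside this count. Irgm1 rose by 4.43 (SE 0.10). The shared probe set of Irgm2 and Igtp differed by 1.48 (SE 0.09) and those of Tgtp1 and Tgtp2 by 0.96 and 0.98, while that of Ifi47 and Olfr56 had overlapping groups and a difference of 0.11. Of 11 other dynamin-like GTPases 1 rose and 2 fell, also close to the shares over all genes. The interferon-induced Mx1 and Mx2 differed by -0.13 and 0.13 (the first passed with array medians subtracted, adjusted p = 0.0356). Dnm1, a neuronal dynamin (-0.95), Mfn2, a mitochondrial fusion gene (0.49), and Gm8995 (-0.37) passed, but 0 of the list did so without wild-type replicate 1 or without wild-type replicate 2. The adjusted p-values were then 0.0987 and 0.0819 for Dnm1, 0.129 and 0.0523 for Mfn2, and 0.127 and 0.174 for Gm8995. Without knockout replicate 2 they were 0.0899 for Mfn2 and 0.183 for Gm8995.

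Genes that serve GBP function were read as 3 lists, beside 14.2% higher and 12.7% lower over all genes. Of 10 measured prenylation genes, 2 rose and 1 fell (median 0.19). These were Zmpste24 (0.53), Fnta (0.43) and Rabggtb (-0.62), with 1 call left without either wild-type replicate and 0 without knockout replicate 2. Fnta had adjusted p-values of 0.0651, 0.0884 and 0.0648 when wild-type replicate 1, wild-type replicate 2 or knockout replicate 2 was left out. Zmpste24 had 0.113 and 0.0723 without wild-type replicate 2 and knockout replicate 2, and 0.149 as the mean of its probe sets. Rabggtb had 0.180 and 0.132 without wild-type replicate 1 and knockout replicate 2. Pggt1b, which encodes the subunit that directs geranylgeranyl transfer, differed by 0.30 (adjusted p = 0.187). Of 12 genes for conjugation of Atg8 proteins, which direct GBPs to vacuoles, Gabarapl1 rose by 0.85 and Atg16l1 fell by 0.93, with Gabarapl1 at 0.0521 (adjusted p) when wild-type replicate 2 was left out, which left 1 call. Of 13 inflammasome genes 4 rose and 2 fell. Aim2, a DNA sensor, rose by 1.22, Ninj1, which acts in membrane rupture, by 0.65 and Nlrc4 by 0.62, and the adaptor gene Pycard fell by 0.87. Casp4, the mouse caspase-11 gene, differed by 0.24 and Casp1 by -0.09.

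Over the 8 lists together, 32 of 106 measured genes rose and 10 fell, against 14.2% and 12.7% of all genes, with a median difference of 0.12 against -0.05. The count of called genes, 42, was 26 without wild-type replicate 2. Over all genes 5071 were called, with 2647 and 2430 left when wild-type replicate 1 or 2 was omitted, so fewer calls were made with either left out. All genes split into 2676 higher and 2395 lower. Subtracting array medians turned this into 2065 higher and 6392 lower, with a median difference of -0.22.

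By pattern over the 4 samples, measured as the Euclidean distance between log2 values centred on each gene's mean, the genes most like Gbp2 were Alox15 (0.67), Tagln (1.34), Pramel20 (1.45), Irgm1 (1.48) and Cthrc1 (1.57). Alox15, a lipoxygenase gene, had a difference of 5.29 and Irgm1 one of 4.43. The genes most like Gbp3 were Igfbp3 (0.08), Vwa5a (0.10), Grb10 (0.16), Igf2 (0.17) and Olfr1372-ps1 (0.19). With 4 samples in 2 groups, this likeness is mostly a likeness in the size of the difference.

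Markers of other cells were read in the same samples, beside 14.2% higher and 12.7% lower over all genes. Of 22 measured fibroblast markers 15 rose and 0 fell (0 also at an unadjusted p of 0.05). Their summed linear level was 3389 to 3950 in KAP_WT against 7752 to 8318 in KAP_KO. Vim and Fn1, the brightest of the list in both groups, weigh most in these sums. Vim rose by 1.44 and Fn1 differed by 0.03. The largest rises were those of Acta2 (4.65, SE 0.59) and Tagln (4.61, SE 0.18), whose order is not set, and Col1a1 rose by 1.78. Acta2 measured 6.78 and 4.64 in KAP_WT, so the size of its rise is uncertain. Fap and Lum had the lowest values of the list in both groups and did not pass. A change in the number of cells of a type, up or down, and a change in RNA per cell cannot be told apart in such bulk samples. The part of the feeder cells in the GBP values was not tested. Of 15 leukocyte and macrophage markers 0 rose and 4 fell. Their summed linear level was 1365 to 1515 in KAP_WT against 518 in KAP_KO. Laptm5, the brightest of them, fell by 2.22. The count of 4 was 2 without wild-type replicate 2 and 8 with array medians subtracted. The defining markers Ptprc and Adgre1 read 3.57 to 3.78 and 3.09 to 3.12 over all 4 samples, below the array medians. Of 12 endothelial markers 5 rose and 2 fell, with a summed level of 998 to 1047 and of 1016 to 1032. Stem cell markers were bright in both groups, with Pou5f1 between 10.78 and 11.33; of 12, 1 rose and 8 fell, and 2 were called without wild-type replicate 1 or without wild-type replicate 2.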

How the data were processed

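The deposited table holds log2 values that the authors obtained by RMA in affy (named in the submitters' processing notes) from Affymetrix Mouse Gene ST 1.1 arrays hybridised with cDNA from 250 ng of RNA. RMA normalises arrays to each other and compresses differences of dim probe sets. Versions, settings, detection calls and the annotation build are not given in the sources used here. No further normalization was applied. Of 35556 probe sets, 23099 are in the platform annotation, 21218 with 1 symbol and 1881 with several. Per gene, the single-symbol probe set with the highest mean was kept (18820 genes; each GBP member has only 1), with no filter on low values.

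Sample titles gave the groups and replicate numbers. Knockout was compared with wild type across all genes by limma 3.58.1 in R 4.3.3 (lmFit, eBayes; 2 residual and 4.70 prior degrees of freedom), with two-sided p-values adjusted by Benjamini-Hochberg and called under 0.05. The fit was tested on simulated data. Gene names and order came from RefSeq (GRCm38.p6), and promoter windows were searched in Python 3.11.15. In each list up to 4 genes with the largest called change were named, beside ligands, receptors, kinases and factors named whatever their values; further genes were named after seeing their values. The family, the lists and the promoter search were chosen with earlier results of these data known. Alternatives tried were a replicate block, a trended or robust prior, a filter on dim genes, quantile normalization, subtraction of array medians, averaging of probe sets per gene, every probe set, each sample left out, an adjusted p under 0.1 and a shorter promoter window. The array medians subtracted were those of the genes compared, not of all probe sets. The number of arrays limits the precision.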

Additional observations from a re-analysis of the deposited data

How the results depend on the processing

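The 5071 calls became 8457 with array medians subtracted, and 2430 to 4350 when 1 sample was left out. The pathway lists together had 42 calls, and 26 to 37 with 1 sample left out. By list, these ranges were 7 to 10 for receptors and transducers, 0 to 3 for dynamin-like GTPases, 0 to 3 for prenylation and 1 to 2 for Atg8 conjugation. With array medians subtracted, ligands had 1 call, immunity-related GTPases 2, dynamin-like GTPases 5 and Atg8 conjugation 4; quantile normalization gave the last 5. At an adjusted p under 0.1 the counts were 1 for ligands, 5 for dynamin-like GTPases, 6 for prenylation and 5 for Atg8 conjugation. Leaving out a sample also lowers the residual degrees of freedom, by the same amount whichever it is. Why the counts differed by the sample left out was not tested, nor were other causes.

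With the replicate number as a block, 5093 genes were called, 40 of them in the pathway lists and 2 among immunity-related GTPases. Same-numbered samples deviated together weakly (r = 0.145 over genes, which are not replicates), and the labels do not say that a number marks a shared culture. The filter on dim genes left 6 of 7 members, without Gbp5, so that the lowest difference was 0.35 (Gbp8). The chromosome 3 promoters kept 5 of 5 cores within the 250 bases before the start. The range between the members' differences, 5.96, was 5.95 after quantile normalization and the same as reported with array medians subtracted or probe sets averaged. Of 67 named genes followed through the alternatives, 25 changed side of the threshold in at least 1 of them, and none changed direction while called. Signal over background was unknown.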
